A study of Homo sapiens with 9 samples.

Results

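The cadherin superfamily genes described here were the 52 protein-coding genes, of 60660 genes in the count matrix, whose symbols are CDH or PCDH followed by a digit, DSC1 to DSC3, DSG1 to DSG4, FAT1 to FAT4, DCHS1, DCHS2 or CELSR1 to CELSR3. They cover the classical cadherins, the desmosomal cadherins, the protocadherins outside the clustered arrays, and the giant FAT, Dachsous and flamingo cadherins. Their RNA was measured by sequencing in OVCAR3, an established line of high-grade serous ovarian cancer, to ask how transcription responds when *CTCFL* (also called BORIS), a germline paralog of the insulator protein CTCF, is raised or lowered. There were 3 groups of 3 libraries. Control carries the label None for CTCFL treatment, and the methods name a LacZ plasmid for it. CTCFL-OE cells were transiently transfected with 2 µg of a plasmid holding the *CTCFL* open reading frame and collected after 48 h. CTCFL-KD cells received siRNA against *CTCFL*. The RNA of CTCFL-KD came from an earlier experiment, so the knockdown and the experiment cannot be told apart in any comparison with that group. The methods for the plasmid transfections state that each biological replicate pooled 3 technical replicates.

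Cadherins bind calcium and hold cells together through their extracellular repeats. Classical cadherins bind catenins inside the cell and form adherens junctions, desmosomal cadherins bind plakoglobin and plakophilins and anchor keratin, and the FAT, Dachsous and flamingo cadherins orient cells within a sheet. Ovarian surface and serous carcinoma cells are known for carrying E-cadherin, N-cadherin and P-cadherin in varying proportions, and cadherin-6 is a surface protein typical of serous carcinoma.

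The Control libraries held 19006695, 24490080 and 19044832 counts. Those of CTCFL-OE totalled 20178085, 18104845 and 17249451, while CTCFL-KD had 14332622, 16605777 and 17995196. Levels are in CPM, counts per 1000000 of the TMM-scaled library total, and a group by its mean ± SD over 3 libraries. A count of 0 allows up to 3 counts, which corresponded to between 0.117 and 0.271 CPM, and such floors and the intervals of count ratios cover counting error only. Groups were compared with edgeR's quasi-likelihood test in one model of all 9 libraries, with Benjamini-Hochberg adjustment over 17794 genes that passed a filter on low counts. Hereafter an adjusted p is the value of that test. Genes were called DEGs when the absolute log2 fold change exceeded 1 and the adjusted p was under 0.1 for CTCFL-OE, or under 0.05 for CTCFL-KD and for CTCFL-KD against CTCFL-OE. Both comparisons with Control use the same Control libraries, so their fold changes are not independent of each other. In bulk RNA, fewer cells carrying a transcript and less of it per cell cannot be told apart.

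*CTCFL* itself (ENSG00000124092.12) was counted 6, 9 and 10 times in Control. The CTCFL-OE libraries had 36, 34 and 72 of its reads, and the CTCFL-KD libraries had 0, 1 and 0. The 3 groups did not overlap, in the order that the labels give them, although the counts were low in every library.

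Before the members are described, 2 libraries need to be set apart. Replicate 1 of CTCFL-KD, the library with the smallest total and a TMM factor of 0.775, lay below both other CTCFL-KD libraries for 27 of the 31 members tested, with a median log2 ratio to them of -0.73. Over the 15327 genes with a mean of at least 1 CPM, the same library lay below both others for 7194 genes, with a median log2 ratio of -0.03. Across these genes, which are not independent replicates, the log2 ratio had a Spearman correlation of -0.55 with transcript length, and across the 31 members one of -0.47. The members are long genes, with a median transcript of 8540 bases against 3565 bases. Replicate 1 of CTCFL-OE lay below both other CTCFL-OE libraries for 22 of the 31 members (71.0%), against 5928 of the 15327 genes (38.7%). The members took 0.305%, 0.332% and 0.324% of all counts in Control, 0.310%, 0.428% and 0.426% in CTCFL-OE, then 0.296%, 0.571% and 0.569% in CTCFL-KD. The first library of each treated group thus stood near Control in this share, and the other libraries of both groups stood above it. On the TMM scale the members summed to 2900, 3160 and 3130 CPM in Control, 2860, 4050 and 4510 in CTCFL-OE, then 3830, 5630 and 5610 in CTCFL-KD. By that scale the first CTCFL-KD library lay above all of Control, so its place depended on the scaling. The part of RNA quality or handling in this was not tested.

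Of the 52 members, 31 passed the filter on low counts and were tested. No read was counted in any library for 9 members, *CDH7*, *CDH9*, *CDH11*, *CDH13*, *CDH17*, *CDH19*, *DSG1*, *DSG3* and *DSG4*. A further 12 had between 1 and 16 counts in their highest library and were not tested, namely *CDH4*, *CDH5*, *CDH8*, *CDH10*, *CDH15*, *CDH16*, *CDH20*, *CDH22*, *PCDH8*, *PCDH11X*, *PCDH11Y* and *PCDH20*. Among the members tested, *CDH12* and *PCDH15* passed the filter through the CTCFL-KD libraries alone, so counts are also given for the other 29. The 4 marker genes of the set, *CDH1*, *CDH2*, *PCDH7* and *CDH23*, were all detected in every library, between 71 counts of *CDH23* and 6957 counts of *CDH1*.

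In Control, 1 gene stood far above the rest. Per kilobase of its longest transcript, *CDH6*, which encodes the type II cadherin also called K-cadherin, had a level of 177 ± 4.30 CPM per kb (SD, n = 3). E-cadherin (*CDH1*) followed with 40.0 ± 2.17 CPM per kb, then desmoglein 2 (*DSG2*) with 30.9 ± 1.21 and the flamingo cadherin *CELSR2* with 22.3 ± 0.969. With this length the 4 levels did not overlap. *FAT2* with 16.2 ± 2.16 CPM per kb, P-cadherin (*CDH3*) with 15.8 ± 0.588 and *FAT1* with 15.4 ± 2.52 overlapped one another, and desmocollin 2 (*DSC2*) lay below them with 10.6 ± 0.373. N-cadherin (*CDH2*) had 2.68 CPM per kb, *PCDH7* 0.752 and *CDH23* 0.345. *CDH6* took between 47.9% and 50.7% of the counts of all members in Control, between 38.6% and 46.6% in CTCFL-OE, then between 40.3% and 45.5% in CTCFL-KD. With the union of all exons as the length, the same 8 genes were the highest, with *CDH6* at 121 CPM per kb and *CDH1* at 31.6, but *CELSR2* at 19.1 then lay above *DSG2* at 18.5, so the order of these 2 depended on the length taken.

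**Figure D1:**
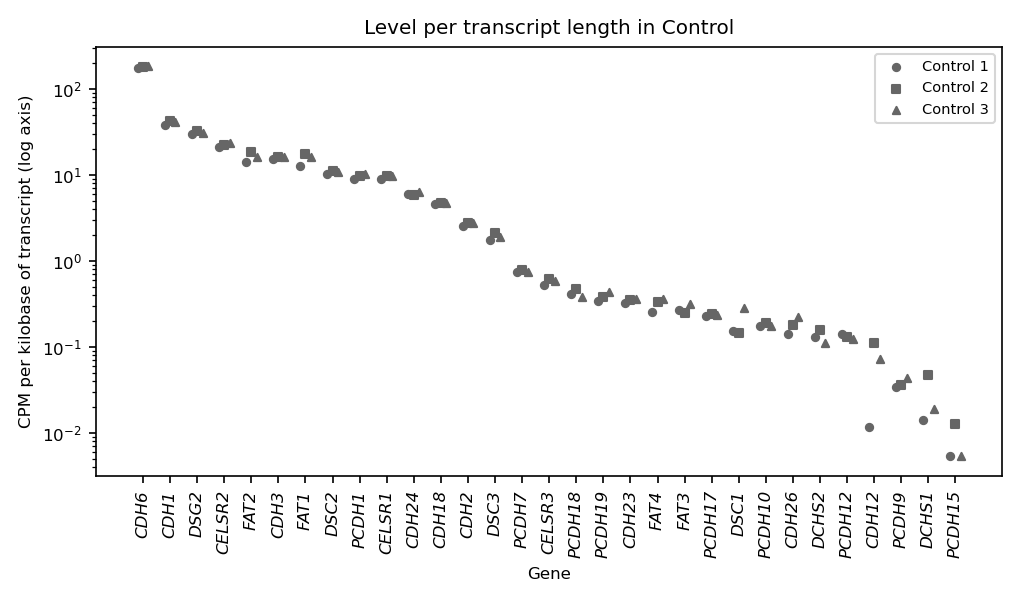
Level of each tested member in the 3 Control libraries, in CPM per kilobase of the longest transcript on a log axis, ordered by the mean, with 1 symbol per library. *CDH6* lies at 177 CPM per kb, above *CDH1* at 40.0, and the lowest members lie near the limit of detection.

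With *CTCFL* overexpressed, few members moved. *CDH23* and *PCDH7* were DEGs and higher, 2 of the 31 tested, where 1.37% of all genes tested were DEGs and higher. No member was a DEG and lower by edgeR, where 0.702% of all genes were. At an unadjusted p under 0.05, 8 members were higher and 3 lower (2 lower of the 29), beside 11.0% and 6.72% of all genes. DESeq2 called 2 of 30 members higher and 0 lower on all libraries (2.23% and 0.802% of the genes to which it gave an adjusted p), and 3 of 29 higher and 0 lower on the groups compared (3.30% and 1.09%). By adjusted p alone, the same 2 members were higher (1.99% of all genes) and 1, *CDH2*, was lower (1.16%). Fitted log2 fold changes were above 0 for 23 of the 31 and for 22 of the 29, with a median of 0.34 in both sets, beside -0.01 over all genes tested. The count depended on which library was left out, and so did that of all genes. With replicates 1, 2 and 3 of Control each left out in turn, no member was a DEG and higher, beside 0.0927%, 0.136% and 0.0981% of all genes. With replicates 2 and 3 of CTCFL-OE each left out, 1 member was, beside 0.245% and 0.255% of all genes. Of the same 31 members, 4 were DEGs and higher without replicate 1 of CTCFL-OE (5.17% of all genes) and 4 without replicate 1 of CTCFL-KD (4.05%). With *CDH16*, which then passed the filter through CTCFL-OE, 5 were in each fit. Without replicate 2 of CTCFL-KD, or replicate 3, there were 2, as with all libraries, beside 1.21% and 1.10% of all genes. Where the members' count changed, it moved in the direction of that of all genes. By adjusted p alone, 9 of 29 members were higher and 2 lower with edgeR on the groups compared, beside 12.2% and 7.96% of all genes. With DESeq2 on these groups 8 of 29 were higher and 2 lower (12% and 10%), and with the correction for length and GC content 6 of 31 and 2 (6.71% and 3.60%). Without replicate 1 of CTCFL-KD, 10 of the same 31 members were higher and 3 lower by adjusted p alone (14.0% and 13.4%), of the same 29, 10 and 2. Among those higher were *CDH3* at 0.59 (edgeR with Benjamini-Hochberg, adjusted p = 0.0694), *CDH26* at 0.78 (adjusted p = 0.0505) and *CELSR1* at 0.47 (adjusted p = 0.0672).

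With *CTCFL* knocked down, members were higher in most classes. There were 16 DEGs that were higher among the 31, and 14 among the 29, where 15.3% of all genes tested were DEGs and higher. None was a DEG and lower by edgeR, where 7.94% of all genes were. At an unadjusted p under 0.05, 23 members were higher and 0 lower, beside 26.8% and 21.5% of all genes. DESeq2 called 17 of 39 members higher and 0 lower, 16 of them among the same 31, beside 12.3% and 6.83% of the genes to which it gave an adjusted p. By adjusted p alone 19 members were higher (21.4% of all genes) and 0 lower (16.8%). The median log2 fold change was 1.13 over the 31 and 1.09 over the 29, beside 0.08 over all genes, and 30 of the 31 fitted values were above 0. Without replicate 1 of CTCFL-KD, 21 of 33 members then tested were DEGs and higher, among them all 16. Of the same 31 members 20 were, with a median of 1.44, and of the same 29, 18 were, with a median of 1.23, beside 14.8% of all genes in that fit. The 5 added, named after their values were seen, were *DCHS2*, *FAT2*, *FAT3*, *FAT4* and *PCDH11X*, the last of which passed the filter only through CTCFL-KD.

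The direct comparison of CTCFL-KD with CTCFL-OE does not take Control as its reference, although the Control libraries were part of the model. In this comparison, 15 of the 31 members, and 13 of the 29, were DEGs and higher in CTCFL-KD, where 10.6% of all genes were. By edgeR 0 were lower, where 6.42% of all genes were, with 19 members higher and 1 lower at an unadjusted p under 0.05 (22.3% and 17.9% of all genes). DESeq2 called 16 of 36 members higher and 1 lower (9.01% and 5.75%), and of the same 31, 15 and 0. The median log2 fold change was 1.15, beside 0.04 over all genes. Without replicate 1 of CTCFL-KD, 19 of 33 members were DEGs and higher and 1 lower, and of the same 31, 18 were higher and 0 lower, beside 10% and 6.84% of all genes.

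**Figure D2:**
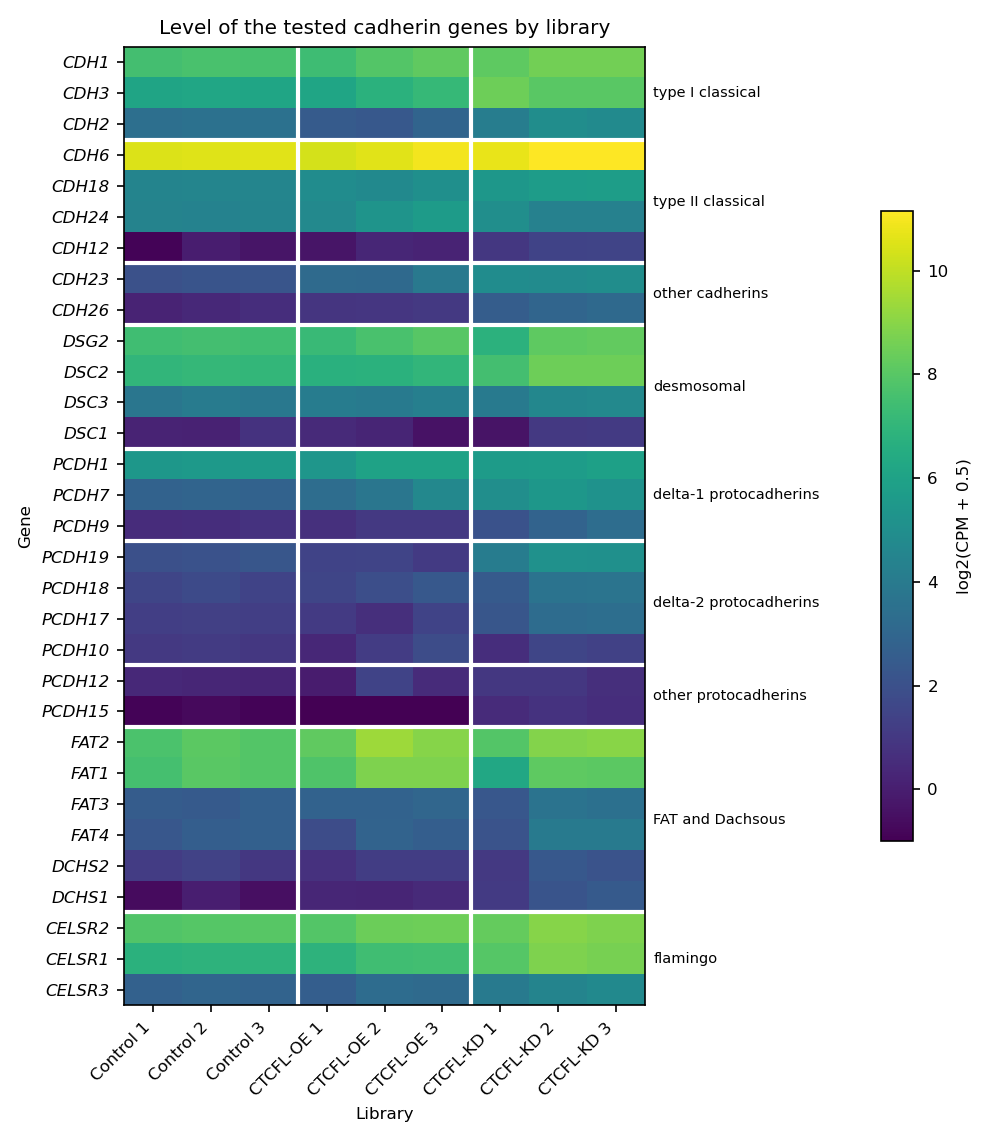
Level of the 31 tested members in each of the 9 libraries, as log2 of CPM plus 0.5, with members grouped by class. The columns of replicates 2 and 3 of CTCFL-KD are brighter than those of Control for most members, and replicate 1 of CTCFL-KD is darker than both for 27 members.

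**Figure D3:**
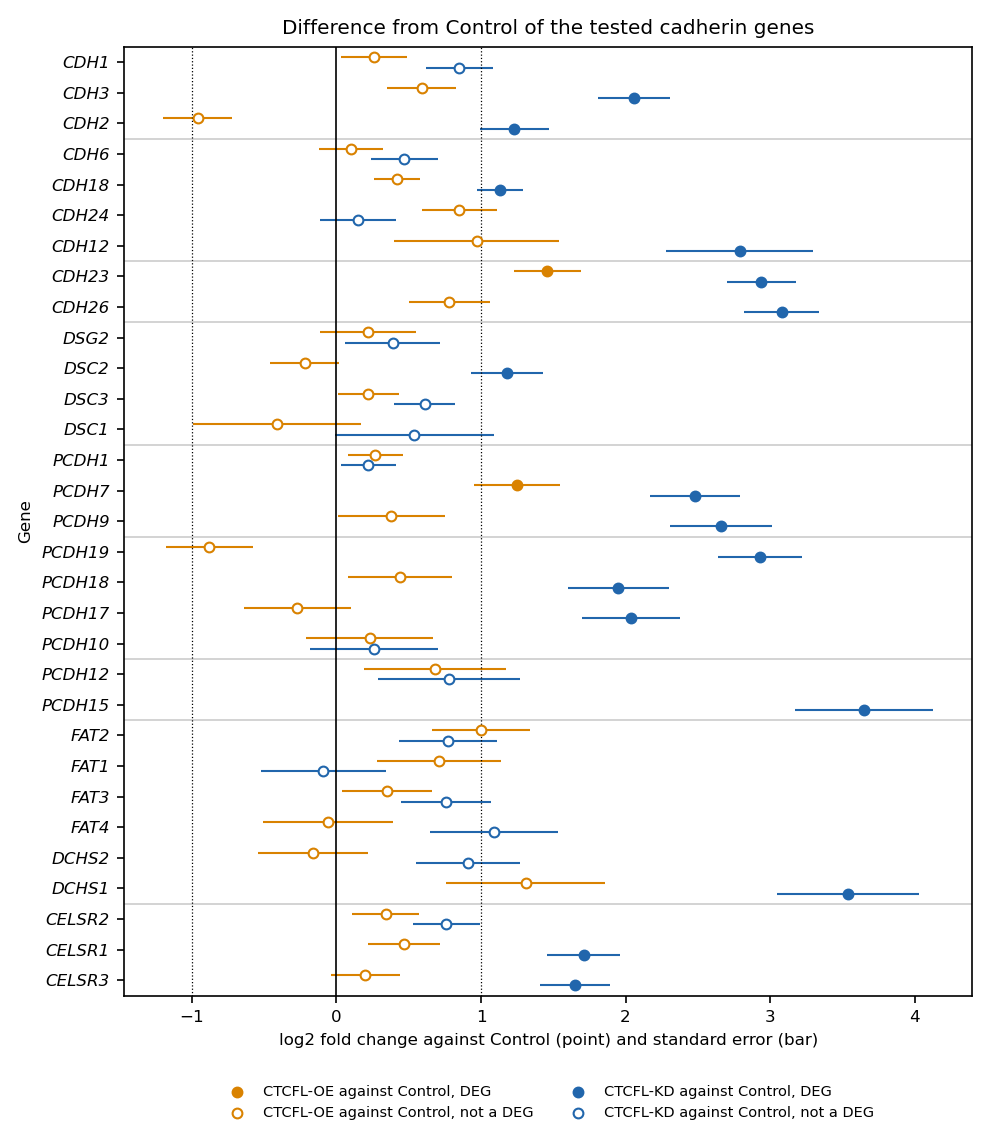
Log2 fold change against Control of each tested member in CTCFL-OE and CTCFL-KD (points) with its standard error (bars), DEGs filled, and dotted lines at -1 and 1. In CTCFL-KD 16 points are filled, all to the right of 1, and in CTCFL-OE 2 are filled. The CTCFL-OE value of *PCDH15* is left out because both groups had at most 3 counts per library.

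Type I classical cadherins carry the conserved adhesive interface of adherens junctions, and 3 of the 5 were tested. E-cadherin, *CDH1* (ENSG00000039068.19, chr16:68737292-68835537 of GRCh38, plus strand), had 181, 201 and 195 CPM in Control, 167, 236 and 289 in CTCFL-OE, then 282, 375 and 381 in CTCFL-KD. CTCFL-OE overlapped Control, while every CTCFL-KD library lay above all of Control. The difference was a log2 fold change of 0.26 in CTCFL-OE (SE 0.23, edgeR with Benjamini-Hochberg, adjusted p = 0.566) and 0.85 in CTCFL-KD (SE 0.23, adjusted p = 0.0134). *CDH1* thus passed the adjusted p in CTCFL-KD without the fold change of a DEG. That was lost without replicate 1 of Control (0.79, edgeR with Benjamini-Hochberg, adjusted p = 0.0628) and without replicate 3 of Control (0.85, adjusted p = 0.0529).

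P-cadherin, *CDH3* (ENSG00000062038.14, chr16:68636189-68727468, plus strand), lies 9.8 kb before *CDH1* on the same strand. Its level was 67.3, 72.4 and 70.8 CPM in Control, 70.3, 108 and 139 in CTCFL-OE, then 352, 266 and 262 in CTCFL-KD. All CTCFL-KD libraries stood well above the rest, with replicate 1 the highest, whereas CTCFL-OE overlapped Control. *CDH3* was higher in CTCFL-KD by a log2 fold change of 2.06 (SE 0.25, edgeR with Benjamini-Hochberg, adjusted p = 0.000156) and also higher than in CTCFL-OE, by 1.47 (SE 0.25, adjusted p = 0.00154). In CTCFL-OE the value was 0.59 (SE 0.24, edgeR with Benjamini-Hochberg, adjusted p = 0.239), and it passed the adjusted p in 4 other settings, at 0.59 to 0.81. The neighbours therefore differed in size of change. The ratio of *CDH1* to *CDH3* levels per kb was 2.49, 2.57 and 2.55 in Control and 2.19, 2.03 and 1.92 in CTCFL-OE. In CTCFL-KD it was 0.741, 1.31 and 1.35, below every other library.

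N-cadherin, *CDH2* (ENSG00000170558.10, chr18:27932879-28177946, minus strand), which is typical of neural and mesenchymal cells, lay on opposite sides of Control in the treated groups, as *PCDH19* did. It had 10.2, 11.1 and 11.0 CPM in Control, 5.15, 4.55 and 7.01 in CTCFL-OE, then 17.4, 30.7 and 27.8 in CTCFL-KD. No group overlapped another. The log2 fold change was -0.96 in CTCFL-OE (SE 0.24, edgeR with Benjamini-Hochberg, adjusted p = 0.0878), which passed the adjusted p but not the fold change of a DEG. It was 1.23 in CTCFL-KD (SE 0.24, adjusted p = 0.00236) and 2.19 between CTCFL-KD and CTCFL-OE (SE 0.25, adjusted p = 0.000141), both DEGs by edgeR with Benjamini-Hochberg adjustment. The lower level in CTCFL-OE lost its adjusted p in 7 of the 9 fits that left out a library. Without replicates 1, 2 and 3 of Control the values were -1.0, -0.94 and -0.95 (edgeR with Benjamini-Hochberg, adjusted p = 0.276, 0.285 and 0.328). Without replicates 2 and 3 of CTCFL-OE they were -0.83 and -1.16 (edgeR with Benjamini-Hochberg, adjusted p = 0.352 and 0.141), and without replicates 2 and 3 of CTCFL-KD, -0.92 and -0.96 (adjusted p = 0.109 and 0.108). The ratio of *CDH1* to *CDH2* levels per kb was 14.8, 15.1 and 14.8 in Control, 27.0, 43.3 and 34.4 in CTCFL-OE, then 13.5, 10.2 and 11.5 in CTCFL-KD. This ratio was higher than Control in every CTCFL-OE library and lower in every CTCFL-KD library.

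**Figure D4:**
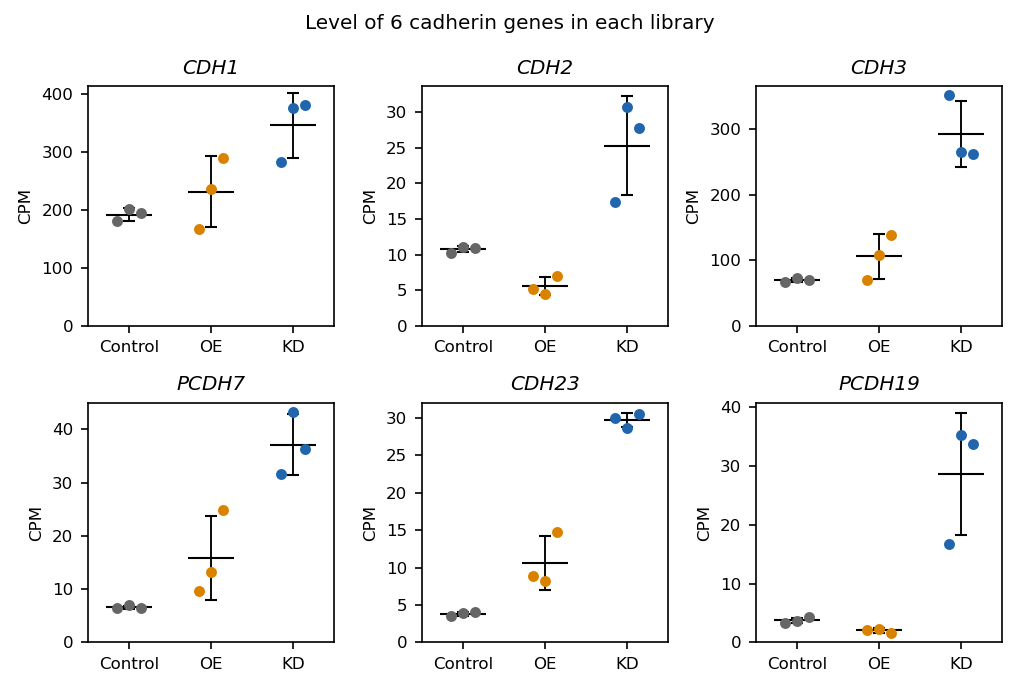
CPM of *CDH1*, *CDH2*, *CDH3*, *PCDH7*, *CDH23* and *PCDH19* in each library (points) with the mean and SD of each group (lines and bars, n = 3), where OE is CTCFL-OE and KD is CTCFL-KD. For *CDH2* and *PCDH19* the CTCFL-OE points lie below all Control points, and for all 6 genes the CTCFL-KD points lie above them.

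The promoter stretch of *CDH2* is shown because *CDH2* passed the adjusted p in opposite directions in the treated groups. It is the 250 bases before the gene's start as RefSeq has it on GRCh38.p14, at chr18:28177131-28177380 on the minus strand, with each CpG in capitals. It holds 17 CpG dinucleotides and 66.0% G and C, overlaps no exon, and lies in an intron of a longer annotated *CDH2* transcript. The letters AGGGGGC occur in it once, as their reverse complement, 175 bases before the start.
CDH2: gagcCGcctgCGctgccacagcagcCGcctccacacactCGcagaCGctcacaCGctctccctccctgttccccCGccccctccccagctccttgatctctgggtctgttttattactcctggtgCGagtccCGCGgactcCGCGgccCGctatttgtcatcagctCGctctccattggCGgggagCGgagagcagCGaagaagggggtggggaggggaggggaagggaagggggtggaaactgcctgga

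Type II cadherins are the larger group of classical cadherins and are typical of mesenchymal, renal and neural cells. Of 13, 4 were tested. *CDH6* (ENSG00000113361.13) had 1470, 1510 and 1550 CPM in Control, 1330, 1560 and 1980 in CTCFL-OE, then 1740, 2270 and 2280 in CTCFL-KD. CTCFL-KD lay above Control, and CTCFL-OE spread across it. Neither difference passed the test, at log2 fold changes of 0.10 in CTCFL-OE (SE 0.22, edgeR with Benjamini-Hochberg, adjusted p = 0.840) and 0.47 in CTCFL-KD (SE 0.23, adjusted p = 0.118). Without replicate 3 of CTCFL-OE the value in CTCFL-OE was -0.07. Without replicate 1 of CTCFL-KD that of CTCFL-KD was 0.59 and passed the adjusted p (edgeR with Benjamini-Hochberg, adjusted p = 0.0171). It passed with all libraries too under the correction for length and GC content, at 0.76 alone (edgeR with Benjamini-Hochberg, adjusted p = 0.0108) and 0.76 with the block (adjusted p = 0.0170). *CDH12*, also called brain cadherin, had 1, 12 and 6 counts in Control, 7, 14 and 11 in CTCFL-OE, then 16, 37 and 42 in CTCFL-KD. Every CTCFL-KD library lay above all others. Since *CDH12* passed the filter only through CTCFL-KD, the group in which it was high, its tests are a description only. CTCFL-KD exceeded Control by 2.79 on the log2 scale (SE 0.51, edgeR with Benjamini-Hochberg, adjusted p = 0.00177). The summed counts gave a ratio of CTCFL-KD to Control of 7.09, with a 95% counting interval of 4.30 to 12.3. Against CTCFL-OE it was 1.82 (SE 0.47, edgeR with Benjamini-Hochberg, adjusted p = 0.0163), and 1.5 without replicate 1 of CTCFL-OE (adjusted p = 0.0596). The remaining tested genes of the class were looked at after their values were seen. *CDH18* was higher in CTCFL-KD, by 1.13 (SE 0.16, edgeR with Benjamini-Hochberg, adjusted p = 0.000435), with 22.2 to 22.8 CPM in Control and 42.2 to 53.1 in CTCFL-KD. *CDH24* had 20.4 to 22.2 CPM in Control, 26, 39.3 and 50.3 in CTCFL-OE, then 31.8, 19.8 and 19.6 in CTCFL-KD. In CTCFL-OE *CDH24* had 0.85 (SE 0.26, edgeR with Benjamini-Hochberg, adjusted p = 0.139), and 1.06 without replicate 1 of CTCFL-OE (adjusted p = 0.0389). It passed the adjusted p without the fold change of a DEG in 7 other settings, at 0.65 to 0.89.

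*CDH23* belongs to the cadherins outside the classical types and forms, with protocadherin 15, the tip link of inner ear hair cells. Of the 5 genes of this kind, *CDH23* and *CDH26* were tested. *CDH23* (ENSG00000107736.21, chr10:71396920-71815947, plus strand) had 3.56, 3.92 and 4.05 CPM in Control, 8.85, 8.26 and 14.8 in CTCFL-OE, then 29.9, 28.6 and 30.5 in CTCFL-KD. The 3 groups were separate, with Control lowest and CTCFL-KD highest, at means of 3.84 ± 0.257, 10.6 ± 3.63 and 29.7 ± 0.971 CPM. The log2 fold change was 1.46 in CTCFL-OE (SE 0.23, edgeR with Benjamini-Hochberg, adjusted p = 0.0175) and 2.94 in CTCFL-KD (SE 0.24, adjusted p = 1.24e-05). CTCFL-KD also exceeded CTCFL-OE, by 1.48 (SE 0.22, edgeR with Benjamini-Hochberg, adjusted p = 0.000813). The level was thus higher than Control when *CTCFL* was raised and when it was lowered. The call in CTCFL-OE ended without replicates 1, 2 and 3 of Control, at 1.40, 1.47 and 1.5 (edgeR with Benjamini-Hochberg, adjusted p = 0.138, 0.130 and 0.120). The 16 DEGs of CTCFL-KD, *CDH23* included, were all kept without replicate 1 of CTCFL-KD.

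*CDH26*, a cadherin of epithelia that binds integrins, had 13, 21 and 20 counts in Control, 29, 27 and 25 in CTCFL-OE, then 61, 121 and 151 in CTCFL-KD, or means of 0.827 ± 0.181, 1.42 ± 0.107 and 6.99 ± 1.4 CPM. Again no group overlapped another. It was a DEG in CTCFL-KD at 3.08 (SE 0.26, edgeR with Benjamini-Hochberg, adjusted p = 1.41e-05), and in CTCFL-OE its value of 0.78 did not pass (SE 0.28, adjusted p = 0.183), though it did in 4 other settings, at 0.78 to 0.89. *CDH16*, the kidney-specific cadherin, was not tested and was looked at after its values were seen. It had 2, 2 and 1 counts in Control, 4, 13 and 14 in CTCFL-OE, then 0 in all CTCFL-KD libraries. The summed counts gave 7.08 times the Control level in CTCFL-OE, with a 95% counting interval of 2.73 to 23.3. CTCFL-OE was at least 2.81-fold higher than CTCFL-KD, taking 3 counts per library as the floor of the latter. With fewer libraries it passed the low-count filter, through replicates 2 and 3 of CTCFL-OE alone and thus through the group in which it was high. For that reason its DEG calls in CTCFL-OE are a description only, at 3.21 without replicate 1 of CTCFL-OE (edgeR with Benjamini-Hochberg, adjusted p = 0.0245) and 2.75 without replicate 1 of CTCFL-KD (adjusted p = 0.0388).

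Sequences are shown for *CDH23*, *PCDH7* and *MYO7A*, whose levels were higher than Control in both treated groups and for which the study listed a predicted CTCFL binding site. That list was drawn from genes called DEGs with these libraries, so it is not independent of their values. From its list the study then named the genes whose predicted site matched a published ChIP-seq peak of CTCFL and CTCF in another ovarian cancer line. *CDH23*, *PCDH7* and *MYO7A* are not among the genes it named. The predicted site of each was found by its letters in GRCh38, on the minus strand, and is printed in capitals within its flanks, 5′ to 3′. The *CDH23* site, chr10:71438949-71438958, lies in an intron, 883 bases before the nearest annotated transcript start and 42029 bases after the start of the main transcript, and is shown within chr10:71438924-71438983. The *PCDH7* site, chr4:30719553-30719565, lies outside the gene, 816 bases before its start, and is shown within chr4:30719528-30719590. The *MYO7A* site, chr11:77128992-77129002, lies in an intron, 690 bases after the nearest transcript start, and is shown within chr11:77128967-77129027. None of the 3 windows overlaps an annotated exon of its own gene, and that of *PCDH7* lies in an intron of a long noncoding RNA on the opposite strand. Both cadherin sites hold the letters CCAGGGG.
CDH23 site: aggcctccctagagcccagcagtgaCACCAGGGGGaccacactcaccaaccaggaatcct
PCDH7 site: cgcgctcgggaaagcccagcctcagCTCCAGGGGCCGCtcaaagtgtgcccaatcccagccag
MYO7A site: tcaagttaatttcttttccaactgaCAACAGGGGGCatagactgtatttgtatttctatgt

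The 250 bases before the starts of *CDH23* and *PCDH7*, the DEGs of CTCFL-OE, were also taken from RefSeq on GRCh38.p14, with each CpG in capitals. That of *CDH23*, chr10:71396670-71396919 on the plus strand, holds 34 CpG dinucleotides and 80.8% G and C and overlaps no annotated exon. That of *PCDH7*, chr4:30720119-30720368 on the plus strand, holds 10 CpG dinucleotides and 59.6% G and C, and overlaps an exon of a long noncoding RNA on the opposite strand. Neither holds AGGGGGC.
CDH23 promoter: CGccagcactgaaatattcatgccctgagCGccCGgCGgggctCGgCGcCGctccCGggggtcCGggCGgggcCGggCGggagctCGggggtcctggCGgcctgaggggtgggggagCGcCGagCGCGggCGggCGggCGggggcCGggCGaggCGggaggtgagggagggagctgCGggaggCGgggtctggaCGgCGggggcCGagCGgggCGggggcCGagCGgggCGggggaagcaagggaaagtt
PCDH7 promoter: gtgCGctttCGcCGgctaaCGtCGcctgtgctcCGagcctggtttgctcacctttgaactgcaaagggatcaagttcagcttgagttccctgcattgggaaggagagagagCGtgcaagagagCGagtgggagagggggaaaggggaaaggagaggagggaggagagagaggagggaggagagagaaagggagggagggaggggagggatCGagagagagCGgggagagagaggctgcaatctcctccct

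Desmosomal cadherins bind cells of epithelia to one another at desmosomes. Their 7 genes lie side by side over 560 kb of chromosome 18, from 30989365 to 31549008, in the order *DSC3*, *DSC2*, *DSC1*, *DSG1*, *DSG4*, *DSG3* and *DSG2*. The genes at the ends of the cluster were expressed, whereas *DSG1*, *DSG4* and *DSG3* between them had no counts, and *DSC1* had 3 to 29 counts. Desmocollin 2, *DSC2*, had 126, 136 and 132 CPM in Control, 103, 108 and 127 in CTCFL-OE, then 183, 354 and 356 in CTCFL-KD. All CTCFL-KD libraries lay above all others, and it was a DEG in CTCFL-KD at 1.18 (SE 0.25, edgeR with Benjamini-Hochberg, adjusted p = 0.00390) and against CTCFL-OE at 1.40 (SE 0.25, adjusted p = 0.00218). Desmoglein 2, *DSG2*, had 170, 183 and 174 CPM in Control, 152, 201 and 259 in CTCFL-OE, then 110, 285 and 296 in CTCFL-KD. The first CTCFL-KD library lay below Control and the others above. The fitted value for CTCFL-KD was 0.39 (SE 0.33, edgeR with Benjamini-Hochberg, adjusted p = 0.376), and 0.73 without replicate 1 of CTCFL-KD (SE 0.19, adjusted p = 0.00872). *DSC3*, looked at after its values were seen, had 13.1, 15.9 and 14.2 CPM in Control and 15.2, 24.6 and 26 in CTCFL-KD. It passed the adjusted p in CTCFL-KD at 0.61 (SE 0.21, edgeR with Benjamini-Hochberg, adjusted p = 0.0424) but not with the replicate number as a block (0.59, adjusted p = 0.0505). It also failed in 8 of the 9 fits without 1 library, all but that without replicate 1 of CTCFL-KD, at 0.47 to 0.68 (edgeR with Benjamini-Hochberg, adjusted p between 0.0554 and 0.15). The adjusted p was lost too with both DESeq2 fits, at 0.58 with all libraries and 0.56 without the third group. Further losses came with edgeR on the groups compared (0.61), RLE scaling (0.60) and no low-count filter (0.55).

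Delta-1 protocadherins have long cytoplasmic tails that bind protein phosphatase 1, and 3 of the 5 were tested. *PCDH7* (ENSG00000169851.15, chr4:30720369-31146805, plus strand) had 6.46, 6.96 and 6.48 CPM in Control, 9.67, 13.2 and 24.8 in CTCFL-OE, then 31.7, 43.2 and 36.3 in CTCFL-KD. As for *CDH23*, the 3 groups were separate, but CTCFL-OE was more spread, at 15.9 ± 7.89 CPM. The log2 fold change was 1.25 in CTCFL-OE (SE 0.30, edgeR with Benjamini-Hochberg, adjusted p = 0.0788) and 2.48 in CTCFL-KD (SE 0.31, adjusted p = 0.000189). CTCFL-KD was above CTCFL-OE by 1.23 (SE 0.30, edgeR with Benjamini-Hochberg, adjusted p = 0.0114). The call in CTCFL-OE ended without replicates 1, 2 and 3 of Control, at 1.23, 1.28 and 1.23 (edgeR with Benjamini-Hochberg, adjusted p = 0.291, 0.256 and 0.312). It also ended without replicate 2 of CTCFL-OE, at 1.36 (edgeR with Benjamini-Hochberg, adjusted p = 0.206), and without replicate 3, at 0.78 (adjusted p = 0.208). Against CTCFL-OE the call ended without replicate 1 of CTCFL-OE, at 0.97 (edgeR with Benjamini-Hochberg, adjusted p = 0.0329), and without replicate 2, at 1.11 (adjusted p = 0.0566). The difference between CTCFL-KD and Control was a DEG in each of these fits.

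*PCDH9*, which is best known from brain, had 0.952, 1.01 and 1.22 CPM in Control, 1.09, 1.52 and 1.54 in CTCFL-OE, then 3.61, 6.84 and 9.53 in CTCFL-KD. CTCFL-KD was above both other groups, which overlapped, and the log2 fold change was 2.66 (SE 0.35, edgeR with Benjamini-Hochberg, adjusted p = 0.000245). The most abundant protocadherin, *PCDH1*, with 9.61 CPM per kb in Control, was no DEG, at 0.27 in CTCFL-OE and 0.22 in CTCFL-KD. *PCDH11X* had 5, 5 and 3 counts in Control, 1, 1 and 2 in CTCFL-OE, then 4, 16 and 15 in CTCFL-KD. Its near-identical copy on the Y chromosome makes these counts uncertain. The ratio of summed counts of CTCFL-KD to Control was 3.82, with a 95% counting interval of 1.97 to 7.86, and the fitted value was 2.12 without replicate 1 of CTCFL-KD (edgeR with Benjamini-Hochberg, adjusted p = 0.00176) and 1.85 without replicate 1 of CTCFL-OE (adjusted p = 0.0123). In both fits it passed the filter only through replicates 2 and 3 of CTCFL-KD, where it was high, so these values are a description only.

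Delta-2 protocadherins act in neuronal sorting and recruit the WAVE actin regulators. Of 5, 4 were tested and 3 were DEGs in CTCFL-KD, all higher, where 15.3% of all genes were DEGs and higher. *PCDH19* (ENSG00000165194.15, chrX:100291644-100410273, minus strand), which causes an epilepsy when mutated, had 3.36, 3.69 and 4.25 CPM in Control, 2.19, 2.30 and 1.60 in CTCFL-OE, then 16.8, 35.3 and 33.7 in CTCFL-KD. CTCFL-OE lay below Control and CTCFL-KD above it. *PCDH19* was a DEG in CTCFL-KD at 2.93 (SE 0.29, edgeR with Benjamini-Hochberg, adjusted p = 4.16e-05) and 3.81 against CTCFL-OE (SE 0.31, adjusted p = 2.51e-05). The value in CTCFL-OE, -0.88, did not pass in the main fit (SE 0.30, edgeR with Benjamini-Hochberg, adjusted p = 0.173). It passed the adjusted p in 6 of the 20 other settings, without the fold change of a DEG. These were edgeR on the groups compared (-0.84, adjusted p = 0.0432), DESeq2 on these groups (-0.87, its adjusted p = 0.0175), and edgeR without replicate 1 of CTCFL-KD (-0.88, adjusted p = 0.0132) or without the low-count filter (-0.89, adjusted p = 0.0505). The others were the correction for length and GC content, alone (-0.93, edgeR with Benjamini-Hochberg, adjusted p = 0.0314) or with the block (-0.92, adjusted p = 0.0479). *PCDH17* had 1.90, 1.98 and 1.92 CPM in Control, 1.60, 1.05 and 2.21 in CTCFL-OE, then 4.24, 9.39 and 10 in CTCFL-KD. Its CTCFL-KD level was higher by 2.04 (SE 0.34, edgeR with Benjamini-Hochberg, adjusted p = 0.00115). *PCDH18* had 2.45, 2.80 and 2.23 CPM in Control, 2.42, 3.24 and 4.61 in CTCFL-OE, then 4.87, 11.8 and 12.1 in CTCFL-KD. This gene was higher in CTCFL-KD by 1.95 (SE 0.35, edgeR with Benjamini-Hochberg, adjusted p = 0.00174). For both genes the CTCFL-KD libraries were above all others and replicate 1 was the lowest of them, while CTCFL-OE overlapped Control. The fourth gene tested, *PCDH10*, had 0.26 in CTCFL-KD and was no DEG.

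Of the other protocadherins, *PCDH15*, the tip-link partner of *CDH23*, was close to absent outside the knockdown. It had 1, 3 and 1 counts in Control, 0 in every CTCFL-OE library, and 10, 20 and 18 in CTCFL-KD. The summed counts gave a ratio of CTCFL-KD to Control of 13.6, with a 95% counting interval of 5.44 to 43.8, and CTCFL-KD was at least 6.44-fold above CTCFL-OE at a floor of 3 counts per library. Its adjusted p in CTCFL-KD was 0.000504 by edgeR with Benjamini-Hochberg adjustment, but it passed the filter only through the group in which it was high. *PCDH12*, a vascular protocadherin, had 10 to 43 counts and was no DEG.

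FAT and Dachsous cadherins are giant proteins that bind each other across cell borders and feed into planar polarity and Hippo signalling, and all 6 were tested. *DCHS1*, the ligand of *FAT4*, was their only DEG in CTCFL-KD, where 15.3% of all genes were DEGs and higher. It had 3, 13 and 4 counts in Control, 16, 13 and 14 in CTCFL-OE, then 18, 67 and 89 in CTCFL-KD. No Control library reached the minimum of the low-count filter, so *DCHS1* was tested through the treated groups, whose levels lay above Control. With edgeR on Control and CTCFL-KD alone it passed the filter only through CTCFL-KD, so its call in that fit is a description only. The log2 fold change in CTCFL-KD was 3.54 (SE 0.49, edgeR with Benjamini-Hochberg, adjusted p = 0.000339), and summed counts gave a ratio of 12.3 (95% counting interval 7.75 to 20.7). In CTCFL-OE it was 1.31 (SE 0.55, edgeR with Benjamini-Hochberg, adjusted p = 0.247), but it was a DEG without replicate 1 of CTCFL-KD, at 1.30 (SE 0.41, adjusted p = 0.0578). With edgeR on the groups compared it had 1.34 (edgeR with Benjamini-Hochberg, adjusted p = 0.0852), but there it passed the filter only through CTCFL-OE, the group in which it was high, so that value is a description only. *FAT1* had 187, 260 and 235 CPM in Control, 221, 454 and 443 in CTCFL-OE, then 78.6, 285 and 276 in CTCFL-KD. *FAT2* had 208, 271 and 238 CPM in Control, 293, 654 and 491 in CTCFL-OE, then 238, 479 and 503 in CTCFL-KD. In both genes the first library of each treated group was the lowest of that group, and for *FAT1* replicate 1 of CTCFL-KD lay below every other library. *FAT1* was no DEG, at 0.71 in CTCFL-OE (SE 0.43, edgeR with Benjamini-Hochberg, adjusted p = 0.411) and -0.09 in CTCFL-KD (SE 0.43, adjusted p = 0.883). In CTCFL-OE it passed the adjusted p in 4 other settings, at 0.57 to 0.72. In CTCFL-KD its value was 0.31 without replicate 1 of CTCFL-KD and 0.00 without replicate 2 of Control. *FAT2* had 1.0 in CTCFL-OE (SE 0.34, edgeR with Benjamini-Hochberg, adjusted p = 0.165), with all CTCFL-OE libraries above Control. It was a DEG in CTCFL-OE in 4 of the 20 other settings. Those that kept every library of the groups compared included edgeR on these groups (1.04, edgeR with Benjamini-Hochberg, adjusted p = 0.0509) and DESeq2 on them (1.01, its adjusted p = 0.00189). The fit without replicate 1 of CTCFL-KD (1.01, edgeR with Benjamini-Hochberg, adjusted p = 0.0274) kept them too. The remaining setting was without replicate 1 of CTCFL-OE (1.25, edgeR with Benjamini-Hochberg, adjusted p = 0.0513). In 5 more settings it passed the adjusted p alone, at 0.79 to 1.0.

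In CTCFL-KD, 4 genes of this class crossed the threshold when replicate 1 of CTCFL-KD was left out, and they are named after their values were seen. *FAT2* went from 0.77 (SE 0.34, edgeR with Benjamini-Hochberg, adjusted p = 0.0926) to 1.04 (SE 0.27, adjusted p = 0.00878), and *FAT3* from 0.76 (SE 0.31, adjusted p = 0.0704) to 1.08 (SE 0.15, adjusted p = 0.000281). *FAT4* went from 1.09 (SE 0.44, edgeR with Benjamini-Hochberg, adjusted p = 0.0728) to 1.49 (SE 0.27, adjusted p = 0.00128), and *DCHS2* from 0.91 (SE 0.36, adjusted p = 0.0681) to 1.22 (SE 0.25, adjusted p = 0.00253). In each of these genes the library left out was the lowest of CTCFL-KD. With all libraries and the replicate number as a block, *FAT2* at 0.69 and *FAT4* at 0.92 passed the adjusted p in CTCFL-KD (edgeR with Benjamini-Hochberg, adjusted p = 0.0364 and 0.0367) without the fold change of a DEG. *FAT4* was also a DEG without the low-count filter, at 1.04 (edgeR with Benjamini-Hochberg, adjusted p = 0.000638). With the correction for length and GC content *FAT3* at 0.67, *FAT4* at 0.96 and *DCHS2* at 0.82 passed the adjusted p alone (edgeR with Benjamini-Hochberg, adjusted p = 0.0104, 0.0248 and 0.0258).

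The flamingo cadherins span the membrane like adhesion receptors and build planar polarity complexes. All 3 passed the adjusted p in CTCFL-KD and were higher, beside 21.4% of all genes. *CELSR1* had 107, 114 and 115 CPM in Control, 115, 170 and 179 in CTCFL-OE, then 247, 440 and 410 in CTCFL-KD. *CELSR1* was thus higher in CTCFL-KD, by 1.71 (SE 0.25, edgeR with Benjamini-Hochberg, adjusted p = 0.000517) and against CTCFL-OE at 1.24 (SE 0.25, adjusted p = 0.00446). *CELSR2* had 234, 247 and 255 CPM in Control, 236, 344 and 351 in CTCFL-OE, then 309, 487 and 447 in CTCFL-KD. For both, all CTCFL-KD libraries were higher than Control. *CELSR2* passed the adjusted p in CTCFL-KD at 0.76 (SE 0.23, edgeR with Benjamini-Hochberg, adjusted p = 0.0232) but not the fold change of a DEG. It lost the adjusted p without replicates 1, 2 and 3 of Control, at 0.71, 0.75 and 0.78 (edgeR with Benjamini-Hochberg, adjusted p = 0.0911, 0.0795 and 0.0722), and without replicates 2 and 3 of CTCFL-KD, at 0.64 and 0.70 (adjusted p = 0.0752 and 0.0613). *CELSR3*, named after its values were seen, had 6.31 to 7.27 CPM in Control and 15.6 to 26.5 in CTCFL-KD and was a DEG there at 1.65 (SE 0.24, edgeR with Benjamini-Hochberg, adjusted p = 0.000512).

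By class, the DEGs of CTCFL-KD were 2 of 3 tested type I cadherins, 2 of 4 type II cadherins, both of the other cadherins, 1 of 4 desmosomal cadherins, 2 of 3 delta-1 and 3 of 4 delta-2 protocadherins, 1 of 2 other protocadherins, 1 of 6 FAT and Dachsous cadherins and 2 of 3 flamingo cadherins, beside 15.3% of all genes. Without *CDH12* and *PCDH15* they were 1 of 3 type II cadherins and 0 of 1 other protocadherin. With so few genes in a class, 1 of 6 or 1 of 4 is near the share of all genes. The median log2 fold change in CTCFL-KD ran from 0.58 in the desmosomal cadherins to 3.01 in the other cadherins, with 1.99 in the delta-2 protocadherins and 0.84 in the FAT and Dachsous cadherins. Without *CDH12* the type II cadherins had the lowest, 0.47. In CTCFL-OE the class medians with more than 2 genes tested lay between -0.02 and 0.63.

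RefSeq promoters were matched by symbol for 34 of the 52 members, each from 250 bases before to 50 bases after a gene's start. The members without an entry were *CDH1*, *CDH3*, *CDH5*, *CDH6*, *CDH11*, *CDH13*, *CDH15*, *CDH16*, *CDH17*, *CDH22*, *CDH24*, *CELSR1*, *DCHS1*, *DSG4*, *FAT3*, *FAT4*, *PCDH10* and *PCDH20*. On both strands, AGGGGGC, a core of many predicted CTCFL sites, occurred in 5 of the 51 promoter windows of the matched members (9.8%), against 14.4% of all 35116 windows. In the window of each gene nearest its GENCODE start it occurred in 3 of 34, those of *CDH2*, *CDH8* and *PCDH9*. CCAGGGG also occurred in 5 windows (9.8%), close to the 10.5% of all windows. The E-box CAGGTG, which SNAI and ZEB repressors bind, occurred in 7 windows (13.7%), against 20.6%. By nearest windows 6 of the 34 held it, and the tested ones were *DSC2*, *DSG2*, *PCDH1* and *PCDH15*. The nearest window lay 8783 bases from the GENCODE start for *PCDH1* and 247160 bases from it for *CDH4*, another of the 6, and at that start for all other members. At the GENCODE start itself *PCDH1* holds no CAGGTG and does hold AGGGGGC. Such matches are a description of letters and not of binding. The promoters of the 22 tested members with an entry had a median of 17 CpG dinucleotides, those of the 12 members not tested 12.5, and those of the 5 members without any count 6. Over all windows the median was 12 for members and 14 for all genes.

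Genes that work with cadherins were taken from 6 lists, and their DEGs were counted in the same way. For comparison, 11.0% of all genes were higher and 6.72% lower at an unadjusted p under 0.05 for CTCFL-OE, then 26.8% and 21.5% for CTCFL-KD, whereas DESeq2 called 2.23% and 0.802% of the genes with an adjusted p for CTCFL-OE, then 12.3% and 6.83% for CTCFL-KD. Of the catenins and adherens junction partners, 14 of 15 were tested. In CTCFL-OE edgeR called 0, with 2 higher and 2 lower at an unadjusted p under 0.05 and 0 by DESeq2. In CTCFL-KD 5 were higher and 0 lower (15.3% and 7.94% of all genes), with 7 higher and 1 lower at an unadjusted p under 0.05 and 5 higher and 0 lower by DESeq2. These were delta-catenin (*CTNND2*) at 3.14, alpha-N-catenin (*CTNNA2*) at 2.07, and the nectins *NECTIN4* at 1.82, *NECTIN3* at 1.35 and *NECTIN2* at 1.25 on the log2 scale. *NECTIN2* was no DEG after a correction for length and GC content, at 0.91. The list's median was 0.08 in CTCFL-OE and 0.53 in CTCFL-KD. *CTNND2* had 2.80, 2.10 and 2.18 CPM in Control, 2.74, 2.40 and 2.15 in CTCFL-OE, then 15.0, 23.1 and 24.3 in CTCFL-KD, so that only CTCFL-KD was high. The obligate partner of classical cadherins, beta-catenin (*CTNNB1*), was no DEG, at -0.34 in CTCFL-OE and -0.06 in CTCFL-KD.

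Of the desmosomal plaque genes, 8 of 9 were tested. None was a DEG in CTCFL-OE by edgeR, with 0 higher and 1 lower at an unadjusted p under 0.05 and 0 by DESeq2. Envoplakin (*EVPL*) at 1.18 was the DEG of CTCFL-KD, 1 of the 8 (15.3% of all genes), with 3 higher and 1 lower at an unadjusted p under 0.05 and 2 higher and 0 lower by DESeq2. Desmoplakin (*DSP*), the most abundant with 543 CPM in Control, had 0.34 in CTCFL-KD. The medians were 0.01 and 0.36.

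The transcription factors that repress E-cadherin or maintain epithelia were tested for 12 of 16. The repressor *SNAI2* had no counts in any library, and *ZEB1* and *ZEB2* had at most 2 and 8 counts. In CTCFL-OE edgeR called 0, with 2 higher and 0 lower at an unadjusted p under 0.05 and 0 by DESeq2. In CTCFL-KD 5 were higher and 2 lower (15.3% and 7.94% of all genes), with 8 higher and 2 lower at an unadjusted p under 0.05, and DESeq2 called 4 higher and 3 lower. Among the repressors, *SNAI1* had 12.1, 10.9 and 9.62 CPM in Control, 9.03, 8.47 and 8.05 in CTCFL-OE, then 3.16, 2.85 and 3.07 in CTCFL-KD, where it fell by 1.84 on the log2 scale (SE 0.18, edgeR with Benjamini-Hochberg, adjusted p = 3.94e-05). *TCF4* was higher by 2.19 and *TWIST1* by 2.03, so the repressors moved in both directions. *SNAI3* had 10, 12 and 8 counts in Control, 8, 9 and 9 in CTCFL-OE, then 33, 32 and 30 in CTCFL-KD. It passed the filter only through CTCFL-KD, where it was high, so its value of 2.20 is a description only, and without it 4 genes of the list were DEGs and higher. Of the epithelial factors, *GRHL3* was higher by 1.57 and *KLF4* by 1.02 (edgeR with Benjamini-Hochberg, adjusted p = 0.00781), and *OVOL1* was lower, at -1.03 (adjusted p = 0.0150). *KLF4* was no DEG with the replicate number as a block (0.98, edgeR with Benjamini-Hochberg, adjusted p = 0.0131), nor without replicate 3 of Control (0.98), replicate 2 of CTCFL-KD (0.90) or replicate 3 of CTCFL-KD (0.85). The call also ended with both DESeq2 fits (0.99 with all libraries, 0.97 without the third group), without the low-count filter (0.96), and with the correction for length and GC content, alone (0.84) or with the block (0.77). *OVOL1* was no DEG without replicate 2 of Control (-0.98), replicate 3 of Control (-0.98) or replicate 1 of CTCFL-KD (-0.87). The medians of the list were -0.02 and 0.73.

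Of the genes of cadherin proteolysis and turnover, 9 of 10 were tested. *MMP7*, the matrilysin that sheds E-cadherin, was the 1 DEG of CTCFL-OE, 1 of the 9 (0.702% of all genes were DEGs and lower). It had 20.1, 22.3 and 19.9 CPM in Control, 3.24, 3.29 and 5.35 in CTCFL-OE, then 0.722, 0.0595 and 0.219 in CTCFL-KD, and no group overlapped another. It was lower in CTCFL-OE, at -2.40 (SE 0.34, edgeR with Benjamini-Hochberg, adjusted p = 0.0111), and lower in CTCFL-KD, at -6.13 (SE 0.47, adjusted p = 9.23e-06). Genes that were higher in CTCFL-KD included nicastrin (*NCSTN*) at 1.52, the proprotein convertase *PCSK5* at 1.33, and the sheddase *ADAM15* at 1.09. *ADAM15* was no DEG without replicate 1 of CTCFL-KD, at 0.87, nor after the correction for length and GC content, at 0.86. The medians were 0.24 and 0.43.

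All 12 genes of planar cell polarity and FAT signalling were tested. In CTCFL-OE edgeR called 0, with 0 at an unadjusted p under 0.05 and 0 by DESeq2. In CTCFL-KD 3 were higher (15.3% of all genes), with 4 at an unadjusted p under 0.05 and 3 by DESeq2. They were the FAT signalling modulator *FJX1* at 1.63, the polarity protein *VANGL2* at 1.31 and the Wnt receptor *FZD3* at 1.18. By edgeR 0 were lower in CTCFL-KD, with 3 lower at an unadjusted p under 0.05 and 1 by DESeq2 on all libraries. The medians were 0.13 and 0.17.

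Of the partners of *CDH23* and *PCDH15* in hair cells, 8 of 10 were tested. The motor protein *MYO7A* was the DEG of both comparisons, 1 of the 8 and higher in each (1.37% of all genes in CTCFL-OE and 15.3% in CTCFL-KD). At an unadjusted p under 0.05, 2 were higher and 0 lower in CTCFL-OE, against 2 and 2 in CTCFL-KD. *MYO7A* had 23.1, 25.6 and 22.3 CPM in Control, 58.6, 61.5 and 59.9 in CTCFL-OE, then 60.4, 51.4 and 47.6 in CTCFL-KD. Like *CDH23*, it was above Control in every library of both treated groups. Its log2 fold change was 1.34 in CTCFL-OE (SE 0.16, edgeR with Benjamini-Hochberg, adjusted p = 0.00475) and 1.17 in CTCFL-KD (SE 0.16, adjusted p = 0.000322), comparisons that share the Control libraries. The medians of the list were 0.32 and 0.37.

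**Figure D5:**
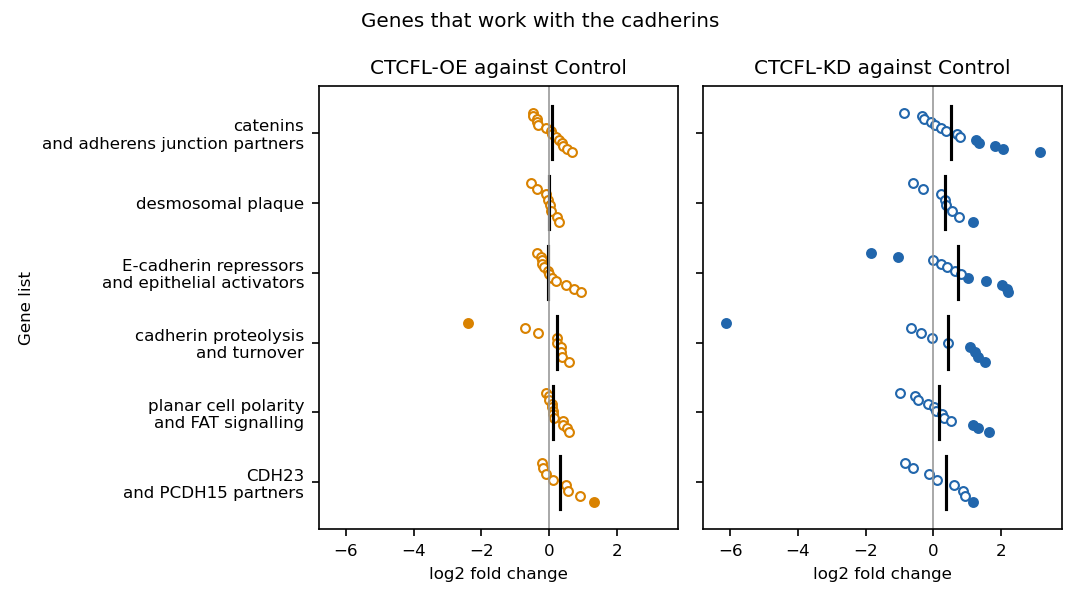
Log2 fold change against Control of each tested gene of the 6 lists in CTCFL-OE (left) and CTCFL-KD (right), DEGs filled, with a black bar at each list's median. *MMP7* lies furthest to the left in both panels, at -2.40 and -6.13, and the medians lie between -0.02 and 0.73.

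Markers of cell identity were read in the same libraries. All 12 markers of OVCAR3 and serous carcinoma had counts, led by keratin 8 (*KRT8*). Their summed level was 5410, 5480 and 5410 CPM in Control, 5150, 5020 and 4860 in CTCFL-OE, then 16100, 10000 and 9550 in CTCFL-KD, so that the sum was highest in CTCFL-KD. Of the 11 tested, 7 were DEGs and higher and 1 lower there (15.3% and 7.94% of all genes). The 9 fibroblast markers summed to 33.2, 31.5 and 27.2 CPM in Control, 24.3, 36.8 and 43.9 in CTCFL-OE, then 42.6, 39.1 and 37.0 in CTCFL-KD. *COL1A1* was the most abundant of them in each group, and *COL1A2* had 0 counts in Control and 14.1, 14.2 and 13.5 CPM in CTCFL-KD. The 6 endothelial markers summed to 19.8, 21.2 and 19.1 CPM in Control, 28.2, 21.8 and 22.4 in CTCFL-OE, then 20.6, 32.2 and 30.3 in CTCFL-KD. *ERG* was the most abundant in Control and CTCFL-OE, whereas in CTCFL-KD *KDR* was, with 11.7 CPM. In CTCFL-KD *KDR* was a DEG and higher, at 2.73, and *PECAM1* a DEG and lower, at -2.56.

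The 5 neural markers, led by *RBFOX3*, summed to 9.62, 8.67 and 9.88 CPM in Control, 4.20, 5.80 and 4.55 in CTCFL-OE, then 7.13, 4.16 and 5.37 in CTCFL-KD, with *OLIG2* at 0. The 5 squamous markers, led by *KRT5* in Control and CTCFL-OE and by *KRT10* in CTCFL-KD, summed to 42.9, 41.0 and 40.5 CPM in Control, 38.1, 32.7 and 32.4 in CTCFL-OE, then 32.4, 18.3 and 22.2 in CTCFL-KD, with *KRT1* at 0. Markers of these other cell types were thus low beside those of the line. Their part in the results was not tested.

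Reads shared between genes limit some of these values. Exons of 15 of the 31 tested members overlap exons of a gene on the opposite strand, and the sources used here do not say whether counting used the strand. For *CDH23* this is *C10orf105*, over 3505 bases or 18.9% of its exon length, with 0 to 3 counts per library. For *PCDH7* it is a long noncoding RNA, over 1602 bases or 12.4%, with 1 to 12 counts. *CDH12* has pseudogene copies, of which *CDH12P1* and *CDH12P2* had equal counts in all 9 libraries, between 10 and 47, so counts of *CDH12* and its copies are uncertain.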

How the data were processed

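The 9 OVCAR3 libraries comprised 3 groups of 3 (Control, CTCFL-OE, CTCFL-KD), each pair of which was compared. The authors used Trimmomatic for trimming, STAR for alignment on GRCh38 and, for counting, featureCounts of Rsubread 1.32.4, and the deposited values were these counts, not normalized. The submitters' processing notes also name kallisto, without its role. The annotation release and the strand and multimapping settings are not given in the sources used here. Libraries were prepared with a stranded kit.

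Genes were named and measured with GENCODE 44, which named 60419 of the 60660 identifiers. The test was that of edgeR 4.0.16 and limma 3.58.1 under R 4.3.3 (filterByExpr with a minimum count of 10, TMM scaling, robust quasi-likelihood fit to all 9 libraries, condition only). A standard error is the absolute log2 fold change over the square root of the F statistic. Tables and figures used Python 3.11.15, pandas 2.3.3, numpy 2.4.6, scipy 1.17.1 and matplotlib 3.10.9. Totals ranged from 14332622 to 24490080 counts. The fit was tested on simulated data.

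Other settings replaced the test (DESeq2 1.42.0 with 9 or 6 libraries, edgeR with 6), the scaling (RLE, upper-quartile), the filter (none, or 10 counts in each library) and robust estimation (none). Others added the replicate number as a block, a length and GC correction, or both. In 9 more fits, 1 library each was left out.

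Values in every library were given for the 4 markers, for DEGs of CTCFL-OE, for the 12 DEGs of CTCFL-KD with the largest fold changes whose libraries did not overlap Control and that reached 1 CPM in a group, and for the 8 highest levels per length in Control, 20 genes in all. In the lists, DEGs, the most abundant gene and factors close to 0 were named. The members and lists were chosen with earlier results of these data known. Control and CTCFL-KD libraries with the same replicate number had weak correlations of 0.180, 0.115 and 0.113 in their deviations from the group means, across 17794 genes. Libraries of different numbers in these groups correlated by -0.169 to 0.0533. The labels do not say whether the numbers pair libraries. The main fit took no pairing, and the replicate number was used only as a block in other settings.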

Additional observations from a re-analysis of the deposited data

How the results depend on the processing

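Of 1397 alternative values of fold changes, levels per length and motif counts, for a selection of the members and list genes, 1352 kept their direction and call or stayed close in size. Counts of DEGs are given apart from these. The members that were DEGs and higher in CTCFL-KD numbered 13 to 21 and those lower 0 under every setting, and leaving out 1 library gave 16 to 21. The shares of all genes that were DEGs and higher there were 8.43% (without the low-count filter) to 16.3%, and those lower 5.13% to 8.54%.

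The count of members that were DEGs and higher in CTCFL-OE, 2 with all libraries, was 4 of 29 with edgeR on the groups compared and 0 to 5 without 1 library. The share of all genes was 1.37% with all libraries, 3.8% with edgeR on the groups compared and 0.0927% to 5.17% without 1 library. Of the 4, *DCHS1* passed the filter only through CTCFL-OE. The count lower in CTCFL-OE was 0 to 1 without 1 library (0.142% to 1.29% of all genes), and the 1 was *PCDH15*, which had at most 3 counts in each library of both groups. In CTCFL-KD against CTCFL-OE, 0 members were lower, and 1 was lower with DESeq2 on all libraries, 1 with DESeq2 on the groups compared, 1 without the low-count filter, and 0 to 1 without 1 library. The shares of all genes that were lower in these fits were 5.75%, 4.81%, 4.39% and 5.29% to 7.0%. Where a library was left out, the 1 was *CDH16*, which passed the filter only through CTCFL-OE. Directions turned for members whose fold changes lay near 0 or varied between libraries. In CTCFL-OE these were *CDH6* (-0.07 to 0.22, negative without replicate 3 of CTCFL-OE), *FAT4* (-0.31 to 0.21, with 0.03 without replicate 3 of Control and 0.21 without replicate 1 of CTCFL-OE), *DCHS2* (0.04 without replicate 1 of CTCFL-OE), *PCDH10* (-0.32 without replicate 3 of CTCFL-OE), *PCDH12* (-0.16 without replicate 2 of CTCFL-OE) and *CELSR3* (-0.02 with the length and GC correction, with or without the block). In CTCFL-KD they were *FAT1* (-0.34 to 0.31, with 0.00 without replicate 2 of Control and 0.31 without replicate 1 of CTCFL-KD) and *CDH24* (-0.11 without replicate 1 of CTCFL-KD, -0.17 with the length and GC correction and -0.16 with that and the block). Against CTCFL-OE, *FAT2*, *PCDH10*, *PCDH12*, *DSG2* and *PCDH1* turned, to values between -0.35 and 0.04. None of these passed the adjusted p in the main fit or in the fits where they turned, and the cause was not tested. Levels per kb in Control with the union of exons as the length were 121 for *CDH6*, 31.6 for *CDH1*, 18.5 for *DSG2*, 19.1 for *CELSR2* and 11.0 for *CDH3*. *CELSR2* then lay above *DSG2*, where the longest transcript gave the reverse.

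With the replicate number as a block, 2 members were DEGs and higher in CTCFL-OE, 16 in CTCFL-KD and 17 in CTCFL-KD against CTCFL-OE, beside 1.06%, 14.6% and 10.2% of all genes. The added members against CTCFL-OE were *FAT4* (1.05) and *DCHS2* (1.01). By adjusted p alone the block also added *FAT2* in CTCFL-OE, *FAT2* and *FAT4* in CTCFL-KD, and *CDH1* against CTCFL-OE, all higher. Against CTCFL-OE it added *FAT1* as well, which was lower in CTCFL-KD, at -0.90. Beyond these, *KLF4* and *DSC3*, the block changed no other call of the members or named list genes. Control and CTCFL-OE libraries of the same number correlated by -0.0108, 0.154 and -0.0482 in their deviations. For these groups too the main fit took no pairing.

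Members with few counts, such as *PCDH15* and *CDH16*, could not be resolved below 3 counts per library.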
